A study of Mus musculus with 23 samples.

Results

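Fatty acid oxidation in mouse aortic endothelial cells was described through 35 genes of its mitochondrial and peroxisomal branches, taken by gene symbol from the platform annotation and compared over 4 plasma groups. Of the 35, 34 were measured among 24704 genes with a symbol, and 1 further member was not analysed here. The cells were primary endothelial cells, the lining cells of vessels, sold as C57BL/6J mouse aorta cells. They were grown to confluence and then held for 48 h with 10% mouse plasma in place of fetal calf serum. The plasma donors were ApoE-KO mice (5 arrays), ApoE-Stab1-KO mice (6 arrays), ApoE-Stab2-KO mice (6 arrays) and wildtype mice (6 arrays). Apolipoprotein E carries lipoproteins to their liver receptors, and stabilin-1 and stabilin-2, encoded by Stab1 and Stab2, are scavenger receptors of sinusoidal endothelium. The knockouts belonged to the plasma donors, and the labels give the cells of all 4 groups no knockout. Knockout donors had eaten a Western diet for 8 weeks. The labels name no diet for wildtype donors, and in every comparison with wildtype plasma the genotype and the diet cannot be told apart. The labels do not say whether replicates were separate cultures, donors or plasma pools, so p-values measure the spread between these arrays, which may be technical.

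A fatty acid is first activated to its acyl-CoA by a synthetase and then crosses into the mitochondrion on carnitine. There a repeating spiral of dehydrogenation, hydration, a second dehydrogenation and thiolysis shortens the chain, and auxiliary enzymes deal with double bonds. Peroxisomes run a parallel spiral on very long and branched chains, and electrons from the mitochondrial acyl-CoA dehydrogenases leave through the electron transfer flavoprotein. Endothelial cells take up and pass on fatty acids from plasma and rely mainly on glycolysis for energy.

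Values are deposited log2 RMA values, in which 1 unit is a 2-fold difference in probe signal, and their level is not comparable between genes. Every difference below is the first-named group minus the second. A gene was called when its limma p, adjusted by Benjamini-Hochberg over all 24704 genes, was under 0.05. The arrays correlated with each other at 0.9921 to 0.9974, and ApoE-Stab1-KO replicate 1 correlated least with its own group (mean r = 0.9931). All 12 endothelial markers lay above the median level of all genes. In contrast, all 5 adipocyte and all 5 hepatocyte markers, 4 of 5 macrophage markers, 4 of 6 fibroblast markers, 3 of 6 smooth muscle markers and 3 of 6 cardiac muscle markers lay below it. In bulk RNA, fewer cells of a type and less RNA per cell cannot be told apart. Of the 34 fatty acid oxidation genes, all but Cpt1c and Ehhadh lay above the median level.

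The fatty acid oxidation genes differed little between plasma groups, and the acyl-CoA synthetase gene Acsl3 was the single member called in any comparison. It was higher with ApoE-KO plasma and with ApoE-Stab1-KO plasma than with wildtype plasma. In ApoE-KO minus wildtype, 1 of 34 members was called, where 0.53% of all genes were. There 5 members had an unadjusted p under 0.05, against 10.5% of all genes. In ApoE-Stab1-KO minus wildtype 1 of 34 was again called, where 0.364% of all genes were. There 6 members had an unadjusted p under 0.05, against 11.3% of all genes. Of these 6, Acsl4 (10.002), Acsl5 (9.62), Acaa2 (8.66), Eci2 (8.58) and Abcd3 (9.42) had ApoE-Stab1-KO replicate 1 as the highest array of that group. For Acsl3 that array was the lowest of the group (7.45). Its part in these differences was not tested, apart from the fit of Acsl3 without it given below. In ApoE-Stab2-KO minus wildtype 0 of 34 were called by limma, against 0.178% of all genes, and 3 members had an unadjusted p under 0.05, against 8.49% of all genes. A mean over the 3 knockout plasmas minus wildtype called 1 of 34, against 0.777% of all genes. The moderated F-test over the 4 groups also called 1 of 34, against 0.546% of all genes.

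Between the knockout plasmas limma called no member. The ApoE-Stab1-KO minus ApoE-KO comparison called 0.00405% of all genes, and 5 of 34 members had an unadjusted p under 0.05, against 5.57% of all genes. For ApoE-Stab2-KO minus ApoE-KO the share called was 0.0243% of all genes, and 7 members had an unadjusted p under 0.05, against 8.36%. For ApoE-Stab2-KO minus ApoE-Stab1-KO the share called was 0.0486%, and 5 members had an unadjusted p under 0.05, against 11% of all genes. The 95% intervals show what size of difference these arrays could have missed. They lay within a 1.5-fold change (0.585 on the log2 scale) in either direction for 34 of 34 members in every pairwise comparison except ApoE-Stab2-KO minus ApoE-KO, in which Hadhb was the exception. How many arrays there are limits this: in ApoE-KO minus wildtype a member's difference had a median standard error of 0.0624.

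The members' differences from wildtype lay on both sides of 0. Their median log2 difference from wildtype was -0.0084 with ApoE-KO plasma, 0.0211 with ApoE-Stab1-KO plasma and 0.0238 with ApoE-Stab2-KO plasma, against medians over all genes of 0.0026, 0.0037 and -0.002 in the same 3 comparisons. Positive differences were seen for 16 of the 34 members with ApoE-KO (47.1%), 22 with ApoE-Stab1-KO (64.7%) and 24 with ApoE-Stab2-KO plasma (70.6%), against 51.2%, 51.8% and 49% of all genes; these shares were not tested. The 3 comparisons share the wildtype arrays. Averaged over the 34 members, the lowest wildtype array read 8.24, against a wildtype median of 8.34. With 1 array left out, the members' median difference from wildtype ran from -0.028 to 0.0099 with ApoE-KO plasma. It ran from 0.0017 to 0.0427 with ApoE-Stab1-KO and from 0.0103 to 0.0332 with ApoE-Stab2-KO plasma. The part of the lowest wildtype array in the positive shares was not tested. In ApoE-KO minus wildtype the members ran from -0.15 (Acad10) to 0.38 (Acsl3), and in ApoE-Stab2-KO minus wildtype from -0.10 (Decr1) to 0.22 (Hadhb).

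**Figure D1:**
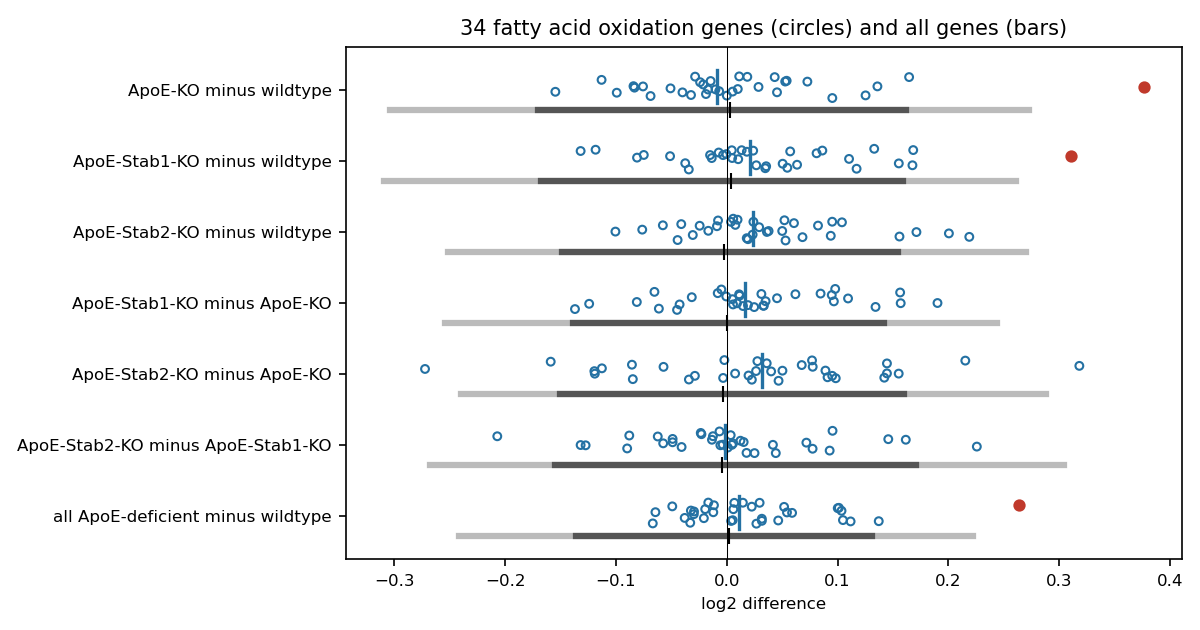
Log2 differences (x axis) of the 34 fatty acid oxidation genes in the 7 comparisons (rows), with open circles for members that were not called and filled red circles for Acsl3 where it was called; short blue lines are the members' medians. Bars under each row span the 5th to 95th percentile (dark) and the 1st to 99th percentile (light) of all 24704 genes, with a tick at their median; most members lie inside the dark bars and Acsl3 lies at 0.38, 0.31 and 0.26 in the 3 rows in which it was called.

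**Figure D2:**
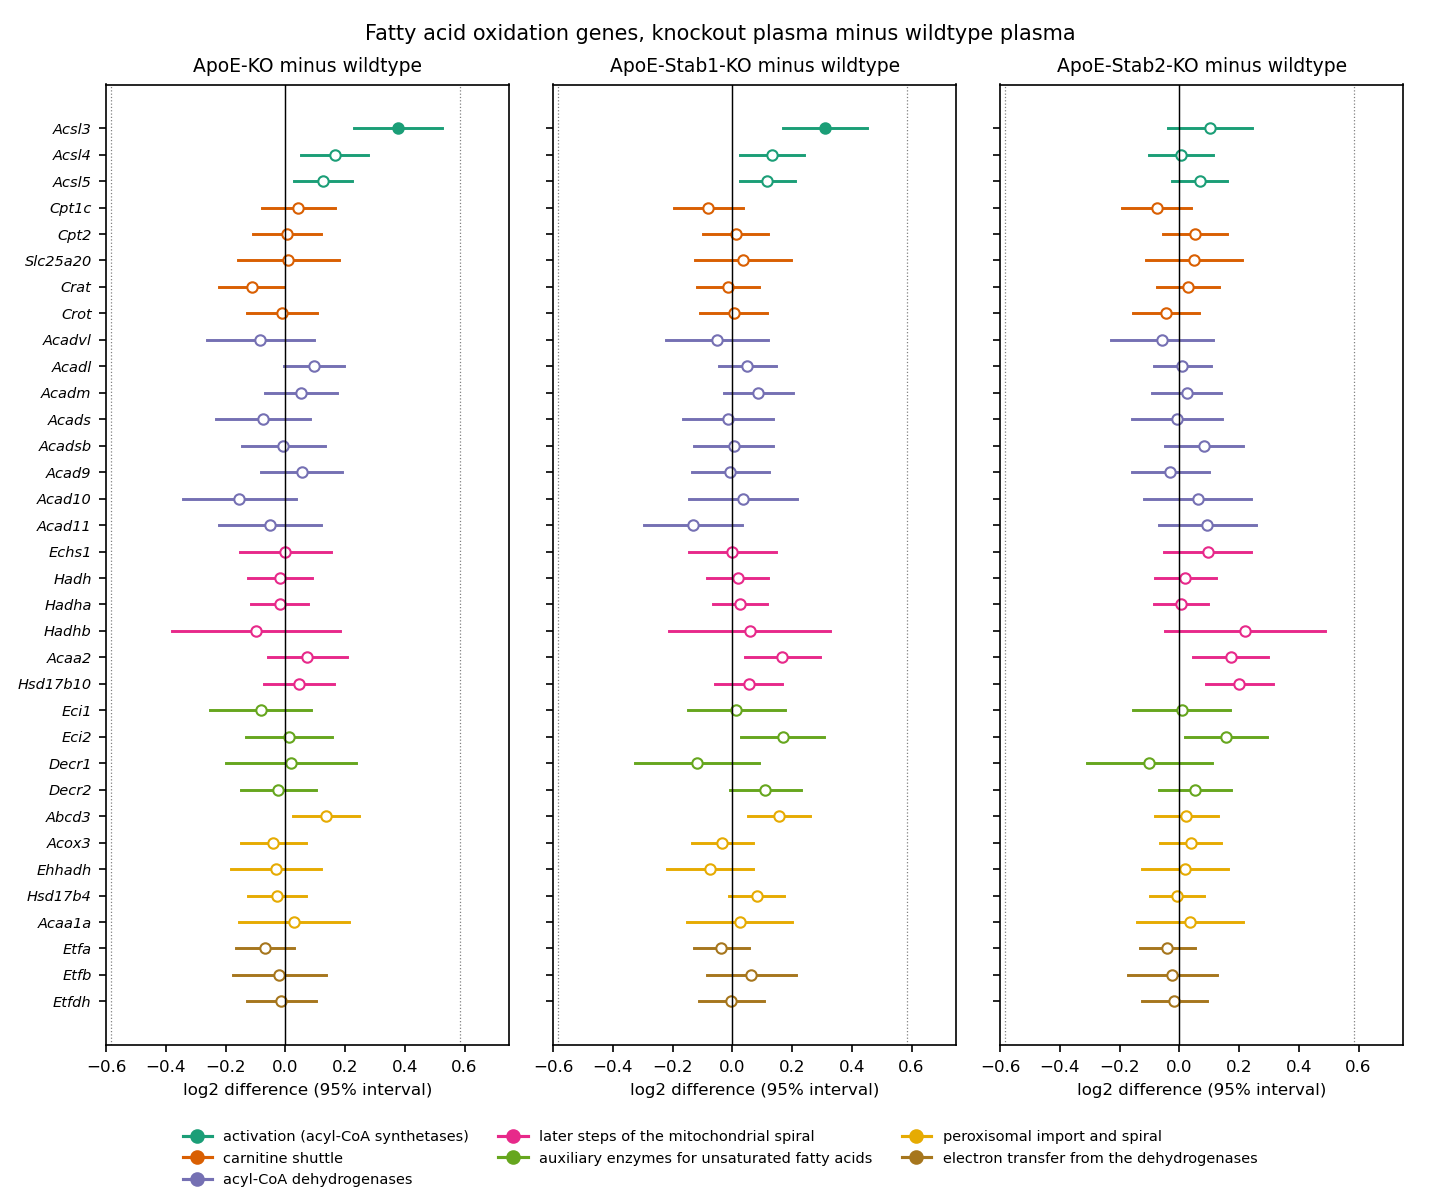
Log2 difference from wildtype plasma (x axis) with its 95% interval for each of the 34 genes (rows, coloured by role) with plasma of the 3 knockout genotypes (panels). Filled circles mark called genes, dotted lines a 1.5-fold change, and the interval of Acsl3 (0.23 to 0.52 with ApoE-KO plasma) lies clear of 0 in the first 2 panels.

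Long-chain acyl-CoA synthetases trap a fatty acid in the cell by joining it to coenzyme A, and the gene family decides where in the cell this happens. Acsl3 encodes the form found on the endoplasmic reticulum and on growing lipid droplets. Its values were 7.59, 7.71, 7.69, 7.44 and 7.72 in the 5 ApoE-KO arrays. With ApoE-Stab1-KO plasma the lowest, median and highest values were 7.45, 7.58 and 7.71, and with ApoE-Stab2-KO plasma they were 7.28, 7.37 and 7.415. With wildtype plasma they were 7.06, 7.25 and 7.44. All ApoE-KO arrays and all ApoE-Stab1-KO arrays lay above all wildtype arrays, the ApoE-KO arrays by a narrow margin (lowest 7.4375 against a wildtype highest of 7.4365). The wildtype arrays fell into sets of 3, with replicates 2, 3 and 5 between 7.40 and 7.44 and replicates 1, 4 and 6 between 7.06 and 7.11. Replicates 2, 3 and 5 were also the higher ones with ApoE-KO plasma (7.69 to 7.72, against 7.59 and 7.44). With ApoE-Stab2-KO plasma they were higher again (7.37 to 7.415, against 7.28 to 7.36). With ApoE-Stab1-KO plasma replicate 4 (7.581) lay above replicate 5 (7.575), so the split did not hold in full. Why the replicate numbers went with Acsl3 was not tested. The ApoE-Stab2-KO arrays lay below every ApoE-KO and every ApoE-Stab1-KO array. Of the ApoE-Stab2-KO arrays, replicate 5 (7.415) lay within the upper wildtype set. The others, from 7.28 to 7.38, lay between the wildtype sets.

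Acsl3 averaged 7.63 ± 0.12 with ApoE-KO plasma (SD, n = 5) and 7.25 ± 0.18 with wildtype plasma (SD, n = 6), a log2 difference of 0.38 ± 0.07 (SE), or 1.30-fold (limma adjusted p = 0.0111). With ApoE-Stab1-KO plasma it averaged 7.56 ± 0.09, and the difference from wildtype was 0.31 ± 0.07, or 1.24-fold (adjusted p = 0.0418). With ApoE-Stab2-KO plasma it averaged 7.36 ± 0.05, and the difference of 0.10 from wildtype did not pass the test (adjusted p = 0.729). Set directly against each other, ApoE-Stab2-KO minus ApoE-KO was -0.27 ± 0.07 (unadjusted p = 0.000884, adjusted p = 0.255) and ApoE-Stab2-KO minus ApoE-Stab1-KO was -0.21 ± 0.07 (adjusted p = 0.236), so neither passed. Over the 3 knockout plasmas together the rise was 0.26 ± 0.06 (adjusted p = 0.0215), and the F-test gave an adjusted p of 0.0182. Fits that held only the arrays of the groups compared ended both pairwise calls (adjusted p = 0.0914 for ApoE-KO and 0.205 for ApoE-Stab1-KO minus wildtype). Leaving out ApoE-KO replicate 2 ended the first (adjusted p = 0.0535), and the second ended in 13 of the 23 fits with 1 array left out (adjusted p from 0.0503 to 0.108). The arrays were ApoE-Stab1-KO replicates 2, 3, 4 and 5, wildtype replicates 1, 4 and 6, and, from the groups outside that comparison, ApoE-KO replicate 1 and ApoE-Stab2-KO replicates 2, 3, 4, 5 and 6. Leaving out wildtype replicate 1, 4 or 6 also ended the call over the 3 knockout plasmas (0.076 to 0.0921). Without ApoE-Stab1-KO replicate 1 the second call remained (0.33, adjusted p = 0.0348).

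Of the 12 endothelial markers, 2 fell with ApoE-KO plasma, 1 fell with ApoE-Stab1-KO plasma and 0 were called with ApoE-Stab2-KO plasma, each against wildtype. In the same comparisons 0.53%, 0.364% and 0.178% of all genes were called. With ApoE-Stab2-KO plasma 3 of the markers had an unadjusted p under 0.05 (1 higher and 2 lower), where 8.49% of all genes did. Egfl7, a matrix protein secreted by endothelium, fell by 0.27 with ApoE-KO plasma (adjusted p = 0.00136) and by 0.21 with ApoE-Stab1-KO plasma (adjusted p = 0.0122), both against wildtype. Cldn5, a tight junction protein, fell by 0.27 with ApoE-KO plasma (adjusted p = 0.0459). Emcn, an endothelial sialomucin, fell by 0.13 over the 3 knockout plasmas together (adjusted p = 0.0452). Vwf, the von Willebrand factor gene, went the other way without passing the test, with 0.27 ± 0.12 for ApoE-Stab1-KO (adjusted p = 0.414) and 0.43 ± 0.12 for ApoE-Stab2-KO minus wildtype (adjusted p = 0.231), and -0.06 for ApoE-KO minus wildtype. The mean level of the 12 endothelial markers was 11.10 with ApoE-KO, 11.15 with ApoE-Stab1-KO and 11.18 with ApoE-Stab2-KO plasma, against 11.19 with wildtype plasma. Their part in the Acsl3 result was not tested.

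Of the other synthetases among the members, Acsl4 and Acsl5 had the same order of group means as Acsl3, at smaller size, and neither was called. Acsl6, a synthetase that is not a member, had another order, with -0.0014 for ApoE-KO, 0.07 for ApoE-Stab1-KO and -0.07 for ApoE-Stab2-KO minus wildtype, and was not called. Its probe set lay below the median level of all genes (mean 3.86), unlike those of Acsl3, Acsl4 and Acsl5, which limits what can be seen of it. Acsl4 prefers arachidonic acid and related polyunsaturated chains. Its values were 9.93, 9.87, 9.86, 9.73 and 9.71 with ApoE-KO plasma. They spanned 9.63, 9.77 and 10.002 (lowest, median, highest) with ApoE-Stab1-KO, 9.61, 9.67 and 9.70 with ApoE-Stab2-KO, and 9.54, 9.66 and 9.73 with wildtype plasma. The ApoE-KO arrays lay above all ApoE-Stab2-KO arrays and overlapped the wildtype arrays. The difference was 0.16 ± 0.05 for ApoE-KO minus wildtype (adjusted p = 0.222) and -0.16 ± 0.05 for ApoE-Stab2-KO minus ApoE-KO (adjusted p = 0.413). Acsl5, found on the outer mitochondrial membrane and the endoplasmic reticulum, had values of 9.68, 9.61, 9.49, 9.56 and 9.46 with ApoE-KO plasma. With ApoE-Stab1-KO plasma it spanned 9.40, 9.57 and 9.62, with ApoE-Stab2-KO plasma 9.45, 9.51 and 9.55, and with wildtype plasma 9.32, 9.45 and 9.50. The groups overlapped, and the difference was 0.13 ± 0.05 for ApoE-KO minus wildtype (adjusted p = 0.311). Acsl3, Acsl4 and Acsl5 all had an unadjusted p under 0.05 in ApoE-KO minus wildtype and in ApoE-Stab1-KO minus wildtype, where 10.5% and 11.3% of all genes did, and Acsl6 did in neither.

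**Figure D3:**
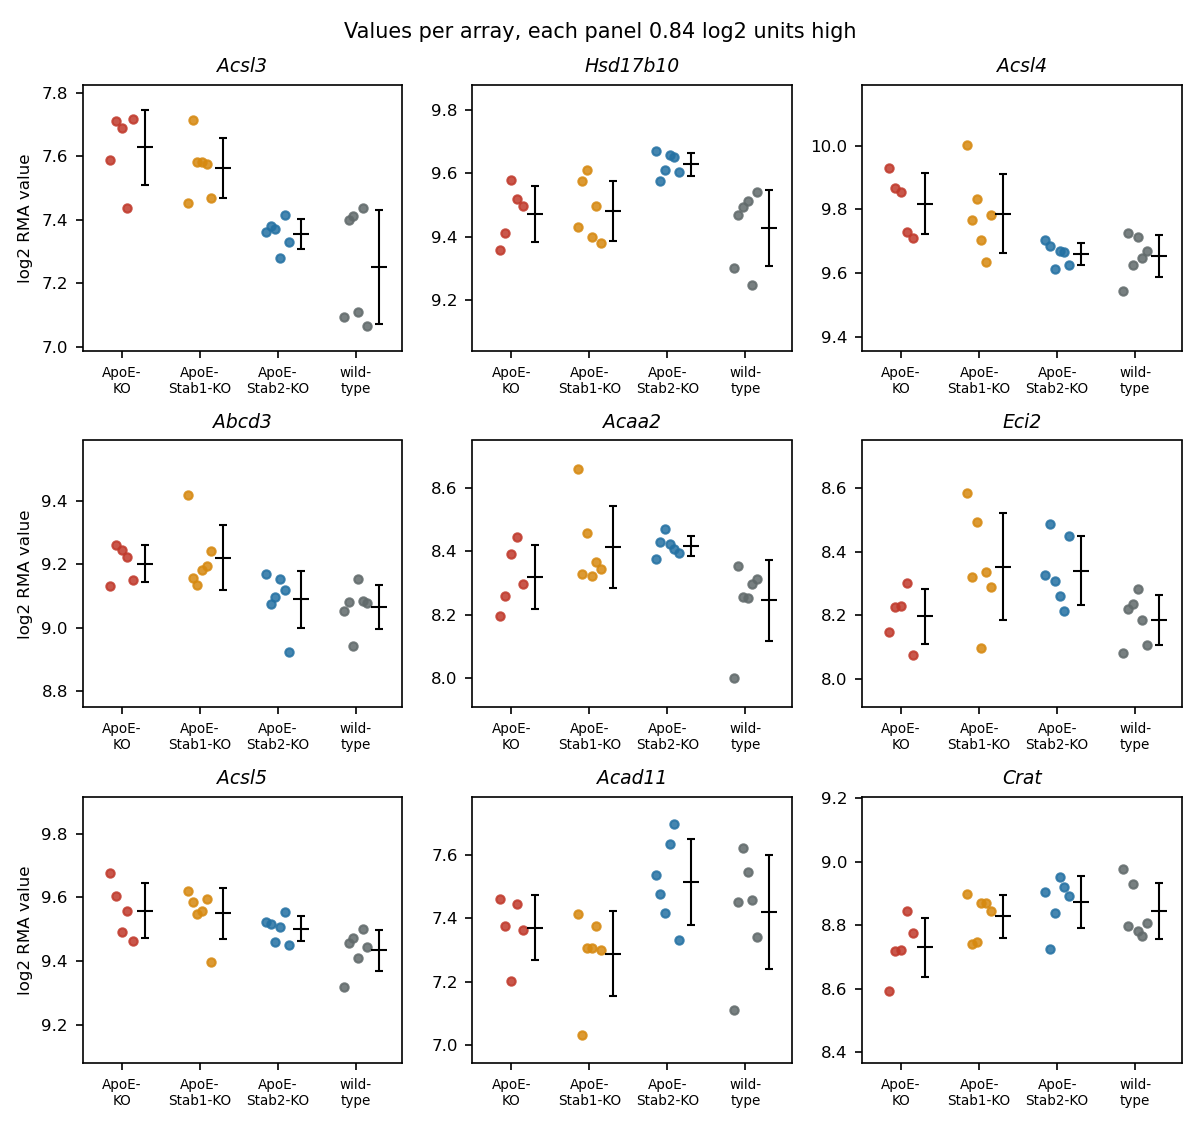
Log2 RMA value (y axis) of each array for Acsl3 and for the 8 other members with the smallest F-test p, by plasma group (x axis), with bars for mean ± SD; every panel spans the same number of log2 units. Acsl3 is the 1 gene of the 9 in which all ApoE-KO and all ApoE-Stab1-KO arrays lie above the wildtype arrays, and the wildtype arrays of Acsl3 form a lower set up to 7.11 and an upper set from 7.40.

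The promoters of Acsl3, Acsl4 and Acsl5 are shown because Acsl3 was the member called and all 3 genes had an unadjusted p under 0.05 in both comparisons named above; the arrays measured nothing at the promoters themselves. Each is 250 bases before to 50 bases after the RefSeq transcript start in GRCm38.p6, written 5′ to 3′ on the gene's strand, at chr1:78657575-78657874 (plus strand) for Acsl3, chrX:142390486-142390785 (minus strand) for Acsl4 and chr19:55253119-55253418 (plus strand) for Acsl5. Capitals mark GC boxes (GGGCGG) and CCAAT boxes on either strand.
Acsl3: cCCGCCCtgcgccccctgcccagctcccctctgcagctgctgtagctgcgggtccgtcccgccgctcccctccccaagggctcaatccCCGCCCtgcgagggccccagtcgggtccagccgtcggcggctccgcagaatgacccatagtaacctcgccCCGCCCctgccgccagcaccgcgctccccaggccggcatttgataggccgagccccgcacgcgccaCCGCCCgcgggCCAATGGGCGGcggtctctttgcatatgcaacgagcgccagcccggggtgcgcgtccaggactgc
Acsl4: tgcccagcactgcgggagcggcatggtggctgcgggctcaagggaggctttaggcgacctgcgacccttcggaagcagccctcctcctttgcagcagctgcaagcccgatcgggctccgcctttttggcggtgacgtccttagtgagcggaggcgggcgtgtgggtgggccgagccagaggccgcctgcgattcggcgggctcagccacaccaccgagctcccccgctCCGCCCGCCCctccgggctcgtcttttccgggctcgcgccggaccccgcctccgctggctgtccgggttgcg
Acsl5: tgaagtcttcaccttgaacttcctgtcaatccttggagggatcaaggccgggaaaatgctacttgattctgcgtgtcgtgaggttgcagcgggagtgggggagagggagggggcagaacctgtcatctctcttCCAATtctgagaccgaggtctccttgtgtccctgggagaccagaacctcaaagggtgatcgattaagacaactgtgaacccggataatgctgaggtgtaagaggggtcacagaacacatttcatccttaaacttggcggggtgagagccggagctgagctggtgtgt
The Acsl3 window holds 5 GC boxes and 1 CCAAT box, of which the last GC box follows directly on the CCAAT box. The Acsl4 window holds 2 overlapping GC boxes and 0 CCAAT boxes, and the Acsl5 window holds 0 GC boxes and 1 CCAAT box.

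The carnitine shuttle moves activated chains between compartments, and 0 of its 5 measured members were called in any comparison. At most 0.777% of all genes were called in any comparison, so 0 called in so small a list is near that share. Crat, which transfers short acyl groups such as acetyl between carnitine and coenzyme A, had the smallest F-test p of the 5. Its values were 8.59, 8.72, 8.72, 8.85 and 8.78 with ApoE-KO plasma. With ApoE-Stab1-KO plasma they spanned 8.74, 8.86 and 8.90, with ApoE-Stab2-KO plasma 8.73, 8.90 and 8.95, and with wildtype plasma 8.77, 8.80 and 8.98. The groups overlapped, with -0.11 ± 0.05 for ApoE-KO minus wildtype (adjusted p = 0.459) and 0.14 ± 0.05 for ApoE-Stab2-KO minus ApoE-KO (adjusted p = 0.449). Cpt2, which hands chains back to coenzyme A inside the mitochondrion, differed from wildtype by 0.0053 with ApoE-KO, 0.01 with ApoE-Stab1-KO and 0.05 with ApoE-Stab2-KO plasma. Slc25a20, the carnitine-acylcarnitine translocase of the inner membrane, differed from wildtype by 0.01, 0.03 and 0.05 in the same order. Crot, the peroxisomal octanoyltransferase, differed by -0.01, 0.0046 and -0.04. Cpt1c, a neuronal relative of the outer-membrane carnitine palmitoyltransferase, lay below the median level of all genes in these cells, with 4.29 ± 0.12 with ApoE-KO plasma (SD, n = 5) and 4.25 ± 0.08 with wildtype plasma (SD, n = 6).

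Acyl-CoA dehydrogenases take the first step of the spiral, each for its own chain length or branching. Of the 8, 0 were called in any comparison, against at most 0.777% of all genes. Acadl, the long-chain form, had a difference of 0.10 ± 0.05 in ApoE-KO minus wildtype (adjusted p = 0.507), 0.05 with ApoE-Stab1-KO and 0.01 with ApoE-Stab2-KO plasma. Acadm, the medium-chain form, had 0.05, 0.09 and 0.02 in the same comparisons. The very-long-chain form Acadvl had -0.08, -0.05 and -0.06. The short-chain form Acads had -0.08, -0.01 and -0.0078. Acadsb, which works on branched chains from isoleucine, had -0.0068, 0.0049 and 0.08, and Acad9, which also helps assemble respiratory complex I, had 0.05, -0.0072 and -0.03. Acad10 had the lowest difference of all members in ApoE-KO minus wildtype, -0.15 ± 0.09 (adjusted p = 0.605), and its ApoE-Stab2-KO minus ApoE-KO difference was 0.22 ± 0.09 (adjusted p = 0.541).

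Acad11, a family member known from human work to act on very long chains, had the smallest F-test p of the 8. Its values were 7.46, 7.38, 7.20, 7.45 and 7.36 with ApoE-KO plasma. They spanned 7.03, 7.31 and 7.41 with ApoE-Stab1-KO plasma, 7.33, 7.51 and 7.70 with ApoE-Stab2-KO plasma, and 7.11, 7.45 and 7.62 with wildtype plasma. The ApoE-Stab2-KO arrays were the higher and the ApoE-Stab1-KO arrays the lower, with overlap, and ApoE-Stab2-KO minus ApoE-Stab1-KO was 0.23 ± 0.08 (adjusted p = 0.274). The differences from wildtype did not pass the test, at 0.09 ± 0.08 for ApoE-Stab2-KO and -0.13 ± 0.08 for ApoE-Stab1-KO plasma (adjusted p = 0.802 and 0.564).

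The later steps of the mitochondrial spiral were measured through 6 genes, of which 0 were called, against at most 0.777% of all genes. With ApoE-Stab2-KO plasma all 6 differences of means from wildtype were positive, from 0.0039 (Hadha) to 0.22 (Hadhb), with a median of 0.13 against -0.002 over all genes. By group medians Hadha went the other way (11.08, against 11.14 with wildtype plasma), and the other genes kept the sign. Averaged over the 6 genes, the lowest wildtype array read 8.69, against a wildtype median of 8.93. Wildtype replicate 1 was the lowest wildtype array for Echs1 (7.83), Hadhb (5.79) and Acaa2 (8). Hsd17b10, a mitochondrial hydroxyacyl-CoA dehydrogenase for branched and short chains that is also a subunit of RNase P, had the smallest F-test p after Acsl3. Its values were 9.58, 9.63 and 9.67 (lowest, median, highest) with ApoE-Stab2-KO plasma. They were 9.36, 9.41, 9.58, 9.52 and 9.498 in the ApoE-KO arrays, spanned 9.38, 9.46 and 9.61 with ApoE-Stab1-KO plasma, and spanned 9.25, 9.48 and 9.54 with wildtype plasma. Every ApoE-Stab2-KO array lay above every wildtype array. The difference was 0.20 ± 0.05, or 1.15-fold, and did not pass the test (unadjusted p = 0.00117, adjusted p = 0.182).

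Acaa2, the mitochondrial thiolase that releases acetyl-CoA from medium and long chains, also had every ApoE-Stab2-KO array above every wildtype array. Its values spanned 8.38, 8.41 and 8.47 with ApoE-Stab2-KO plasma, 8.32, 8.35 and 8.66 with ApoE-Stab1-KO plasma, and 8, 8.28 and 8.36 with wildtype plasma. In the ApoE-KO arrays they were 8.20, 8.26, 8.39, 8.45 and 8.30. The difference from wildtype was 0.17 ± 0.06 both with ApoE-Stab2-KO plasma (adjusted p = 0.392) and with ApoE-Stab1-KO plasma (adjusted p = 0.274). In ApoE-Stab2-KO minus wildtype these 2 of 34 members had groups that did not overlap, against 1.15% of all genes. The corresponding counts were 1 of 34 in ApoE-KO minus wildtype (1.98% of all genes) and 1 of 34 in ApoE-Stab1-KO minus wildtype (0.854%), Acsl3 in both. In ApoE-Stab2-KO minus ApoE-KO they were Acsl3 and Acsl4, 2 of 34 (1.33%), in ApoE-Stab2-KO minus ApoE-Stab1-KO Acsl3 alone, 1 of 34 (0.806%), and in ApoE-Stab1-KO minus ApoE-KO 0 of 34 (0.368%).

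Hadha and Hadhb encode the alpha and beta subunits of the mitochondrial trifunctional protein, which carries out the last 3 steps on long chains. Hadha values averaged 11.07 with ApoE-KO, 11.11 with ApoE-Stab1-KO and 11.09 with ApoE-Stab2-KO plasma, against 11.09 with wildtype plasma, with a within-group SD of 0.0669. Hadhb values were 6.27, 5.76, 5.87, 6.14 and 6.27 with ApoE-KO plasma. They spanned 5.87, 6.16 and 6.67 with ApoE-Stab1-KO plasma, 6.25, 6.36 and 6.57 with ApoE-Stab2-KO plasma, and 5.79, 6.25 and 6.48 with wildtype plasma. The groups overlapped, and Hadhb had the largest within-group SD of the 34 members, 0.243. Its ApoE-Stab2-KO minus ApoE-KO difference was 0.32 ± 0.14 (adjusted p = 0.546), the highest of all members in that comparison, where Hadha had 0.02. The genes stand head to head on chromosome 5 with 272 bases between their first transcribed bases, so their promoter windows overlap. The Hadhb window, chr5:30155003-30155302 (plus strand, GRCm38.p6, RefSeq), is shown because the probe sets of a pair with a shared promoter region differed in spread; capitals mark the 228 bases shared with the Hadha window, chr5:30154931-30155230 (minus strand).
Hadhb: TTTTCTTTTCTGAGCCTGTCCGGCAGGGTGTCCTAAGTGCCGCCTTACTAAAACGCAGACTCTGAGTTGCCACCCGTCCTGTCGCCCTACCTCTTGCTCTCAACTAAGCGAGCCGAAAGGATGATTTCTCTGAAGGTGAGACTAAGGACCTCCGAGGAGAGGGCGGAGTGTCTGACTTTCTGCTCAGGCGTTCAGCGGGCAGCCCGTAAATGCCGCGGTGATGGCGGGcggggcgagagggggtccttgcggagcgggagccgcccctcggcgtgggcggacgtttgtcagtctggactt
Of the other genes of these steps, Echs1, the enoyl-CoA hydratase, differed from wildtype by 1e-04 with ApoE-KO, -3e-04 with ApoE-Stab1-KO and 0.10 with ApoE-Stab2-KO plasma. Hadh, the hydroxyacyl-CoA dehydrogenase for shorter chains, differed by -0.02, 0.02 and 0.02.

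Auxiliary enzymes let unsaturated chains enter the spiral, and 0 of 4 were called, against at most 0.777% of all genes. Eci2, an enoyl-CoA isomerase of peroxisomes and mitochondria, had values of 8.15, 8.22, 8.23, 8.30 and 8.08 with ApoE-KO plasma. They spanned 8.10, 8.33 and 8.58 with ApoE-Stab1-KO plasma, 8.21, 8.32 and 8.49 with ApoE-Stab2-KO plasma, and 8.08, 8.20 and 8.28 with wildtype plasma. The ApoE-Stab1-KO and ApoE-Stab2-KO groups reached higher than the wildtype group and overlapped it. The differences from wildtype were 0.17 ± 0.07 with ApoE-Stab1-KO plasma (adjusted p = 0.326) and 0.16 ± 0.07 with ApoE-Stab2-KO plasma (adjusted p = 0.514), and 0.01 with ApoE-KO plasma. The mitochondrial isomerase Eci1 had -0.08, 0.01 and 0.0078 with ApoE-KO plasma, ApoE-Stab1-KO plasma and ApoE-Stab2-KO plasma. Decr1, the mitochondrial dienoyl-CoA reductase, had 0.02, -0.12 and -0.10, and its peroxisomal counterpart Decr2 had -0.02, 0.11 and 0.05.

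In the peroxisomal branch 0 of 5 measured members were called, against at most 0.777% of all genes. Abcd3, a half-transporter that brings branched and long acyl-CoAs into the peroxisome, had values of 9.13, 9.26, 9.24, 9.22 and 9.15 with ApoE-KO plasma. They spanned 9.13, 9.19 and 9.42 with ApoE-Stab1-KO plasma, 8.92, 9.11 and 9.17 with ApoE-Stab2-KO plasma, and 8.94, 9.08 and 9.15 with wildtype plasma. The ApoE-KO and ApoE-Stab1-KO arrays lay toward the top of the range and the ApoE-Stab2-KO and wildtype arrays toward the bottom, with overlap. Differences from wildtype were 0.14 ± 0.05 with ApoE-KO plasma (adjusted p = 0.332), 0.16 ± 0.05 with ApoE-Stab1-KO plasma (adjusted p = 0.209) and 0.02 with ApoE-Stab2-KO plasma (adjusted p = 0.939). Acox3, an oxidase for branched chains, differed from wildtype by -0.04, -0.03 and 0.04 with ApoE-KO plasma, ApoE-Stab1-KO plasma and ApoE-Stab2-KO plasma. Hsd17b4, the D-bifunctional protein, differed by -0.03, 0.08 and -0.0088, and the peroxisomal thiolase Acaa1a by 0.03, 0.02 and 0.04. Ehhadh, the L-bifunctional protein and a strong PPARα target in mouse liver, lay below the median level in these cells and averaged 3.15 ± 0.18 with ApoE-KO plasma (SD, n = 5) and 3.18 ± 0.08 with wildtype plasma (SD, n = 6).

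Electrons from the acyl-CoA dehydrogenases pass to the electron transfer flavoprotein (subunits Etfa and Etfb) and on to its ubiquinone oxidoreductase (Etfdh). None of these 3 was called, and 0 of 3 had an F-test p under 0.05 before adjustment, where 11.9% of all genes did. Etfdh was the steadiest of the 34 members, with group means within 0.0166 of each other, at 9.64 with ApoE-KO, 9.65 with ApoE-Stab1-KO and 9.63 with ApoE-Stab2-KO plasma, against 9.65 with wildtype plasma. Etfa differed from wildtype by -0.07, -0.04 and -0.04 and Etfb by -0.02, 0.06 and -0.02 in the 3 knockout plasmas. Over all 34 members, 7 had an unadjusted F-test p under 0.05, against 11.9% of all genes. The 7 were Acsl3, Acsl4, Acsl5, Hsd17b10, Abcd3, Acaa2 and Eci2.

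**Figure D4:**
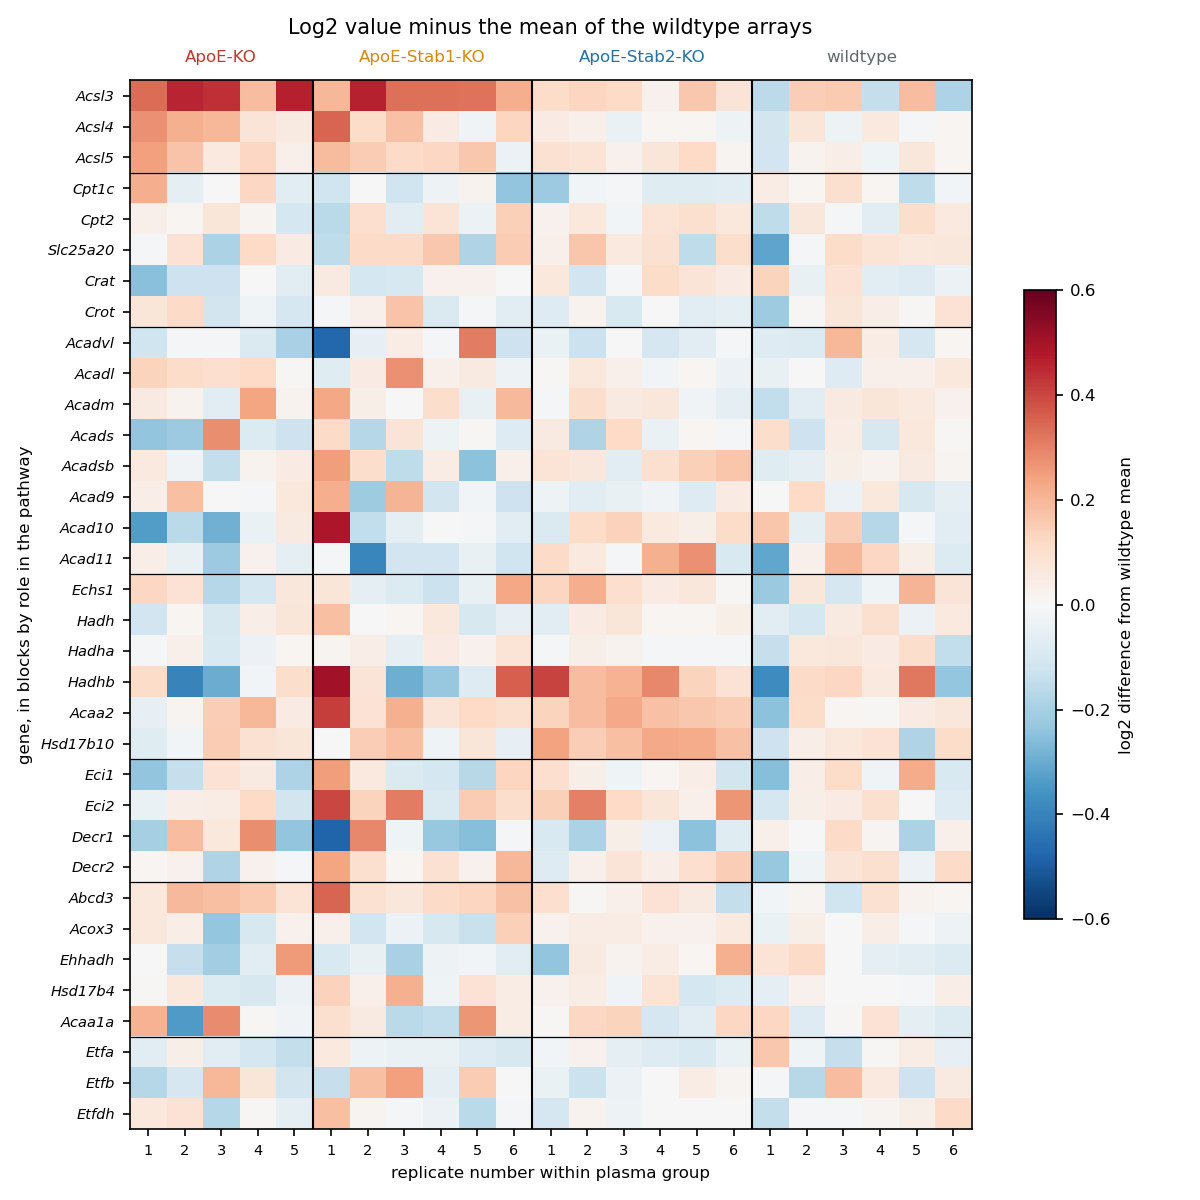
Log2 value minus the mean of the wildtype arrays (colour) for each of the 34 genes (rows, in blocks by role) and each of the 23 arrays (columns, by plasma group). The row of Acsl3 is above the wildtype mean in all arrays of the 3 knockout plasmas. The row of Abcd3 is above it in all ApoE-KO and all ApoE-Stab1-KO arrays. The rows of Hsd17b10 and Acaa2 are above it in all ApoE-Stab2-KO arrays. In some rows single arrays stand out, such as ApoE-Stab1-KO replicate 1 for Hadhb (6.67) and wildtype replicate 1 for Acaa2 (8).

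Of 38 measured genes from a further list of fatty acid uptake, transport and oxidation, 2 rose and 0 fell against wildtype with each of the 3 knockout plasmas, Acot2 and Cd36 in each case. The shares of all genes called in these comparisons were 0.53%, 0.364% and 0.178%. The median difference over the 38 was 0.0028, 0.04 and 0.07 in the 3 comparisons. Between knockout plasmas 0 of the 38 were called. Cpt1a, given here for its role as the main outer-membrane gate of the carnitine shuttle, averaged 11.09 with ApoE-KO, 11.09 with ApoE-Stab1-KO and 11.11 with ApoE-Stab2-KO plasma, against 11.04 with wildtype plasma, and its ApoE-KO minus wildtype difference was 0.05 (adjusted p = 0.736).

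Acot2, a mitochondrial thioesterase that releases long-chain fatty acids from coenzyme A, had values of 10.81, 10.82, 10.68, 10.68 and 10.52 with ApoE-KO plasma. They spanned 10.46, 10.59 and 10.74 with ApoE-Stab1-KO plasma, 10.50, 10.53 and 10.64 with ApoE-Stab2-KO plasma, and 10.20, 10.28 and 10.37 with wildtype plasma. Every array of every knockout plasma lay above every wildtype array. The rise against wildtype was 0.42 ± 0.06, or 1.34-fold, with ApoE-KO plasma (adjusted p = 0.00032), 0.32 ± 0.05 with ApoE-Stab1-KO plasma (adjusted p = 0.00556) and 0.27 ± 0.05 with ApoE-Stab2-KO plasma (adjusted p = 0.0321). Over the 3 knockout plasmas together the rise was 0.34 ± 0.04 (adjusted p = 0.000215). Leaving out any 1 ApoE-Stab2-KO array or wildtype replicate 1, 4, 5 or 6 ended the ApoE-Stab2-KO call (10 of 23 fits, adjusted p up to 0.104), and the ApoE-Stab1-KO call ended in a fit of only its own 12 arrays (0.0511).

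Cd36, the fatty acid translocase and scavenger receptor for oxidised lipoproteins, had values of 10.56, 10.502, 10.40, 10.51 and 10.24 with ApoE-KO plasma. They spanned 10.27, 10.57 and 10.75 with ApoE-Stab1-KO plasma, 10.44, 10.47 and 10.59 with ApoE-Stab2-KO plasma, and 10.04, 10.12 and 10.23 with wildtype plasma. Again every knockout-plasma array lay above every wildtype array. The rise was 0.32 ± 0.07 with ApoE-KO plasma (adjusted p = 0.0487), 0.40 ± 0.07, or 1.32-fold, with ApoE-Stab1-KO plasma (adjusted p = 0.00779) and 0.36 ± 0.07 with ApoE-Stab2-KO plasma (adjusted p = 0.0244). Over the 3 knockout plasmas together it was 0.36 ± 0.06 (adjusted p = 0.00184). The ApoE-KO call ended in 18 of the 23 fits with 1 array left out (adjusted p up to 0.151), and remained without ApoE-KO replicate 5 and without ApoE-Stab1-KO replicate 1, 2, 3 or 5. Leaving out ApoE-Stab2-KO replicate 3, 4, 5 or 6 or wildtype replicate 1, 2, 4, 5 or 6 ended the ApoE-Stab2-KO call (9 of 23 fits, up to 0.0738), and a fit of only its own arrays ended the ApoE-Stab1-KO call (0.0855). Fabp4, a fatty acid carrier of capillary endothelium and fat cells, did not pass in any comparison, with 0.18 ± 0.04 for ApoE-Stab1-KO minus wildtype (adjusted p = 0.0731). Adipocytes also express Cd36, Fabp4 and Angptl4, and all 5 measured adipocyte markers lay below the median level, with a mean of 3.57 with ApoE-KO, 3.63 with ApoE-Stab1-KO and 3.66 with ApoE-Stab2-KO plasma, against 3.56 with wildtype plasma.

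Among 19 measured regulators and responsive genes of fatty acid oxidation, Angptl4 alone was called in any comparison, against at most 0.777% of all genes. It encodes a secreted inhibitor of lipoprotein lipase and is a target of the fatty acid sensing PPAR receptors. Its values spanned 10.33, 10.35 and 10.45 with ApoE-Stab2-KO plasma, 10.21, 10.24 and 10.32 with ApoE-Stab1-KO plasma, and 9.93, 10.06 and 10.09 with wildtype plasma, and were 10.13, 10.32, 10.35, 10.51 and 10.09 in the ApoE-KO arrays. It rose by 0.34 ± 0.06, or 1.26-fold, with ApoE-Stab2-KO plasma (adjusted p = 0.00546), a call that remained in all 7 alternative fits and in all 23 with 1 array left out. The differences of 0.24 with ApoE-KO plasma (adjusted p = 0.0574) and 0.22 with ApoE-Stab1-KO plasma (adjusted p = 0.0792) did not pass, while over the 3 knockout plasmas together it rose by 0.27 ± 0.05 (adjusted p = 0.0031). Rxra and Klf15 had the next smallest F-test p. Rxra, the nuclear receptor partner of the PPARs, had 0.21 ± 0.06 for ApoE-Stab1-KO minus ApoE-KO (adjusted p = 0.648), and Klf15, a regulator of lipid use in heart and muscle, had -0.21 ± 0.07 for ApoE-Stab2-KO minus ApoE-Stab1-KO (adjusted p = 0.243).

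Peroxins build peroxisomes and import their enzymes, and 0 of 13 measured peroxins were called, against at most 0.777% of all genes. Pex11g, which takes part in peroxisome division, had the smallest F-test p, and averaged 5.97 with ApoE-Stab1-KO plasma, against 5.65 with ApoE-KO plasma (difference 0.32 ± 0.09, adjusted p = 0.602). Pex6, an ATPase that recycles the import receptor, differed by -0.19 ± 0.07 in ApoE-KO minus wildtype (adjusted p = 0.248). Pex14, a docking protein of the import machinery, differed by 0.21 ± 0.08 in ApoE-Stab2-KO minus ApoE-Stab1-KO (adjusted p = 0.316).

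**Figure D5:**
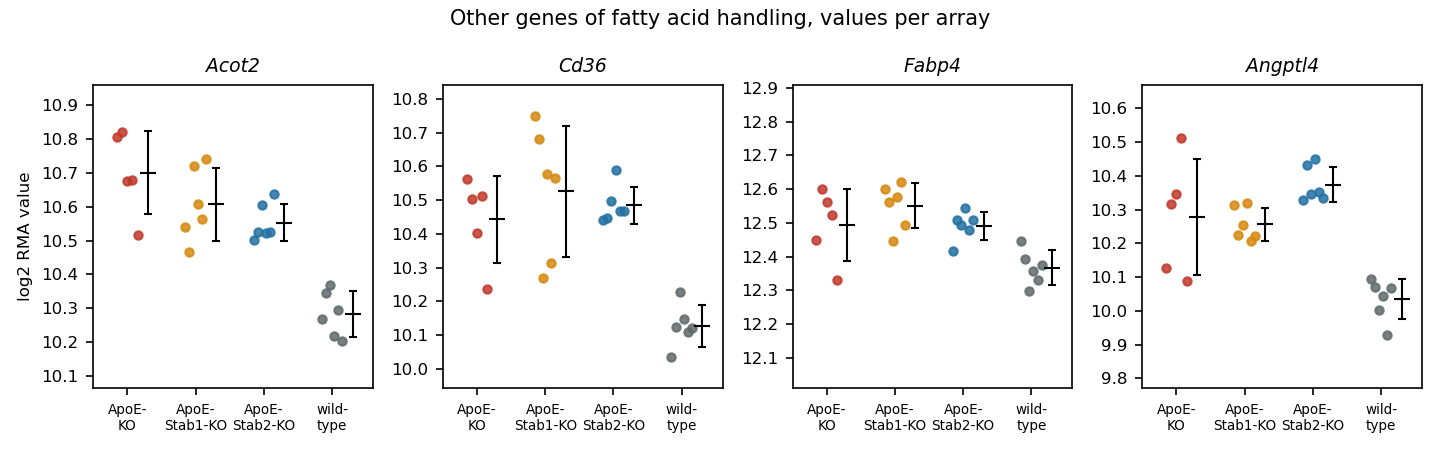
Log2 RMA value (y axis) of each array for Acot2, Cd36, Fabp4 and Angptl4 by plasma group (x axis), with bars for mean ± SD; every panel spans the same number of log2 units. All knockout-plasma arrays of Acot2 and Cd36 lie above the wildtype arrays, whose highest values are 10.37 and 10.23.

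The promoter windows of the members were searched on both strands for motifs of factors known from lipid metabolism. RefSeq windows of GRCm38.p6 were found for 29 members (30 windows). A direct repeat of AGGTCA spaced by 1 base, the element of PPAR receptors, was in 0 of 30 member windows and in 0.0396% of 32851 windows of all genes. The extended half-site TCAAGGTCA of estrogen-related receptors was in 0 of 30 and 0.423%, and the consensus sterol regulatory element in 0 of 30 and 0.234%. For these motifs 0 of 30 is near the share over all windows. GC boxes (GGGCGG) were in 23 of 30 member windows and in 35.7% of all windows, and CCAAT boxes in 13 of 30 and 37.4%. All windows were counted whatever the level of their gene, while most members lay above the median level. Windows of similarly bright genes were not counted, so whether these shares are particular to the members was not tested. A match is a description of these letters only, and no match says only that these exact letters are not in these 300 bases.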

How the data were processed

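Total RNA of 23 endothelial cell samples was measured on Affymetrix arrays as biotin-labelled cRNA, per the labels' protocols. The deposited values are log2 expression values made by the authors with RMA, per the submitters' processing notes; the sources used here give no version. RMA corrects background, normalizes arrays to 1 distribution and summarises probe sets, so a difference is read against the rest of its array. The values ran from 2.521 to 13.94. In ApoE-KO replicate 1, 4.21% of values lay on the binary decimal grid that held 100% of the values of the other arrays, so that array was stored with finer decimals. No 2 arrays were identical.

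Samples were grouped by the plasma genotype in the labels. Of 25428 probe sets, 24705 had 1 symbol in the platform annotation and 723 had none and were left out. The brighter probe set was kept for a repeated symbol, which left 24704 genes. All 34 measured members matched a RefSeq gene under the same symbol. limma 3.58.1 in R 4.3.3 (lmFit, eBayes, without trend or robust settings) fitted 1 mean per group over all 23 arrays, with 19 residual degrees of freedom and 4.19 from the prior. The 6 pairwise contrasts, the mean of the 3 knockout plasmas minus wildtype and the F-test were each adjusted by Benjamini-Hochberg over all genes. There was no filter on dim genes. The script was tested on simulated data. The members and gene lists were chosen with earlier results of these data known. Values per array are given for called members and for the 8 others with the smallest F-test p. From the further lists, called genes and the 3 with the smallest F-test p are named. Outside these rules, values per array are also given for Hadhb, and Acsl6 and Cpt1a are also named. Alternatives were a second quantile normalization, median centring, eBayes with a trend and robust settings, a filter on dim genes, weights per array, a replicate block, fits of only the groups compared, and leaving out each array. matplotlib 3.10.9 (Python 3.11.15) drew the figures.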

Additional observations from a re-analysis of the deposited data

Results flagged for a closer look

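Single arrays that stood far from the rest of their group were sought with Dixon's test at the 95% level, over 48 sets of arrays. The genes searched were the 9 members with the smallest F-test p, and Acot2, Cd36 and Angptl4. Hadhb was not among the genes searched. The test marked 4 sets, and chance marks about 1 in 20. Wildtype replicate 1 read 8 for Acaa2, with the next wildtype array at 8.25 and the highest at 8.36. ApoE-Stab1-KO replicate 6 read 9.40 for Acsl5, with the next array of that group at 9.55 and the highest at 9.62. ApoE-Stab1-KO replicate 2 read 7.03 for Acad11, with the next at 7.30 and the highest at 7.41. ApoE-Stab2-KO replicate 4 read 10.59 for Cd36, with the next at 10.50 and the lowest at 10.44. The 6 wildtype arrays of Acsl3, which fell into sets of 3, were not marked by this test.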

How the results depend on the processing

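The count of members called was recomputed under each alternative. In ApoE-KO minus wildtype it was 1 in 6 of 7 alternatives and 0 with only the arrays of the groups compared; leaving out 1 array gave 0 to 1 (22 of 23 runs gave 1). In ApoE-Stab1-KO minus wildtype it was 1 in 5 of 7 alternatives and 0 with array weights (Acsl3 adjusted p = 0.0514) and with only the arrays compared; leaving out 1 array gave 0 to 1, with 1 in 10 of 23 runs. For the mean of the knockout plasmas minus wildtype it was 1 in all 6 alternatives and 0 to 1 with 1 array left out (20 of 23 runs gave 1). The F-test called 1 member, Acsl3, in all 6 alternatives and all 23 runs with an array left out (adjusted p 0.0051 to 0.0452). The other 4 pairwise comparisons gave 0 in every setting run. No difference of Acsl3, Acot2, Cd36 or Angptl4 changed sign. The cause of the lost calls was not tested, except that fits of 2 groups hold fewer arrays. Over all genes the replicate numbers showed little sign of pairing. Over 33 pairs of same-numbered arrays the deviations correlated at -0.0958 to 0.107, and 1 pair exceeded 0.1. Of the 23 arrays, 6 correlated best with their own number. A correlation over all genes cannot decide this for a single gene. In Acsl3, replicates 2, 3 and 5 lay above the others with ApoE-KO, ApoE-Stab2-KO and wildtype plasma. With the number as a replicate block, Acsl3 stayed the 1 member called in ApoE-KO and in ApoE-Stab1-KO minus wildtype (adjusted p = 0.00359 and 0.00997). Without the block its limma adjusted p was 0.0111 and 0.0418. Over all genes the block gave 91 calls in ApoE-KO minus wildtype (131 without it), 61 in ApoE-Stab1-KO minus wildtype (90) and 34 in ApoE-Stab2-KO minus wildtype (44). Under the block the calls of Cd36 with ApoE-KO plasma (0.07) and of Acot2 with ApoE-Stab2-KO plasma (0.0686) did not pass. Dim probe sets limit what can be seen of Cpt1c and Ehhadh, and of Acsl6 from the further list.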

Other observations

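The fatty acid oxidation genes scattered least among the ApoE-Stab2-KO arrays. In 24 of the 34 members the ApoE-Stab2-KO group had the smallest SD of the 4 groups and in 0 the largest. Among all genes it had the smallest SD in 30.0% of genes, and among genes above the median level in 38.7%. The median SD over the members was 0.0667 with ApoE-Stab2-KO, 0.101 with ApoE-KO and 0.113 with ApoE-Stab1-KO plasma, against 0.0946 with wildtype plasma. Over all genes the medians were 0.101, 0.1011 and 0.1245 in the same order, against 0.1061 with wildtype plasma. Most members lie above the median level, and over all genes above it the medians were 0.0965, 0.1126 and 0.1417, against 0.1111 with wildtype plasma, so the ApoE-Stab2-KO arrays scattered least there too. Hadha, for example, had an SD of 0.0185 with ApoE-Stab2-KO plasma and 0.112 with wildtype plasma. The difference in spread was not tested.

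The beta-subunit gene Hadhb scattered far more than the alpha-subunit gene Hadha (within-group SD 0.243 and 0.0669). Their probe sets also read at unlike levels, with means of 6.21 for Hadhb and 11.09 for Hadha. Whether the difference in spread lies in the probe sets or in the transcripts was not tested.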
